A study of Arabidopsis thaliana with 12 samples.

Results

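Roots of *clf* and of wild type *Arabidopsis thaliana* seedlings were compared after iron was withheld from both. The comparison rests on 6 of the 12 libraries of the series, the 3 labelled *clf* and iron deficient (-Fe) and the 3 labelled wild type and iron deficient, and it was described across the 20168 of 32678 genes left after those with few counts were removed. The wild type was Columbia (Col-0). The mutant was *clf-29*, a single T-DNA insertion line in the same ecotype, so the genotype is represented by 1 allele. All 6 sets of seedlings spent 12 days on B5 medium and then 3 days on Murashige and Skoog (MS) medium without iron, supplemented with ferrozine. RNA was taken from root tissue. The other 6 libraries hold the same genotypes after 3 days with sufficient iron (+Fe), on MS medium with FeNa-EDTA. They served as separate libraries in which the genes found under -Fe could be tested again. How many seedlings went into each library is not stated in the sources used here. The study calls the libraries of a group biological replicates.

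*CURLY LEAF* (*CLF*) encodes a SET domain methyltransferase of Polycomb Repressive Complex 2 (PRC2), which places trimethylation on lysine 27 of histone H3 (H3K27me3). This mark keeps developmental genes silent in tissues where they are not used, and the floral organ identity genes, silent in roots and leaves, are the best known targets of CLF. SWINGER (SWN) is a second methyltransferase that can take over part of the work of CLF, so that many targets stay repressed in the single mutant. Under iron deficiency, Arabidopsis roots turn on ferric reduction, iron import and their regulators, of which the bHLH factor FIT is the best known. The comparison asks which transcripts differ between roots with and without CLF when that response is under way. No histone mark was measured in these libraries.

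The 6 libraries held between 22595265 and 25642058 counted reads. The first library of each -Fe group was the one least like the other libraries of its group, with a mean correlation of 0.934 in wild type and 0.953 in *clf*, against 0.959 to 0.968 for the other 4. In wild type, that library also had low levels of the iron uptake genes (*FIT* at 30.1 CPM, where the other 2 had 156 and 168) and the most RNA of 11 green shoot markers, at 336 summed CPM against 50.6 and 73.6. In the *clf* libraries the sum of these markers was 124, 140 and 271. All 16 root markers were detected in every library. CPM here are read counts scaled to the TMM-normalized library size.

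The targeted gene was examined first. *CLF* (AT2G23380, chromosome 2, 9955092 to 9960386, plus strand of TAIR10.1) was measured at 55.1, 51.3 and 50.9 CPM in the wild type and at 15.4, 12.6 and 13.2 CPM in the *clf* libraries. Every *clf* library was below every wild type library, which fits the labels, and transcripts were reduced but not absent, with a log2 fold change of -1.93 (SE 0.17, edgeR adjusted p = 0.000871). Of the 20 annotated genes on either side of *CLF*, 12 were tested and none was called by edgeR, although 2 had an unadjusted p under 0.05. Genes on the other strand overlap *CLF* by 58 and 22 bases at its ends. *SWN* had levels of 35.2, 29.5 and 38.0 CPM in wild type and 42.0, 37.2 and 38.1 CPM in *clf*, and the groups overlapped (log2 fold change 0.19, SE 0.13, edgeR adjusted p = 0.768).

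Across all genes, few transcripts passed the test, and most of those that did were higher in *clf*. edgeR called 27 of the 20168 genes at an adjusted p under 0.05 (0.134% of those tested), of which 22 were higher in *clf* (0.109%) and 5 were lower (0.0248%), *CLF* included. Each of the 27 differed at least 2-fold and had groups that did not overlap. At an unadjusted p under 0.05, 923 genes (4.58%) were higher and 634 (3.14%) were lower. The median log2 fold change of all tested genes was -0.00383 (49.5% positive). All *clf* libraries were above all wild type libraries for 1542 genes (7.65%) and below them for 1267 (6.28%). A wild type mean under 1 CPM was found for 13 of the 22 genes called higher. The median level of the 22 was 0.829 CPM for the wild type group and 4.98 CPM for the *clf* group. The median wild type level of all tested genes was 14 CPM. A gene nearly silent in wild type -Fe roots passes the filter on low counts only through other groups. The 22 were also chosen on these same values. Both limits partly fix the low wild type level and the size of the rise, so no conclusion is drawn from them. The share of all tested genes under 1 CPM is not given. Since these are whole roots, more cells with a transcript and more transcript per cell cannot be told apart.

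**Figure D1:**
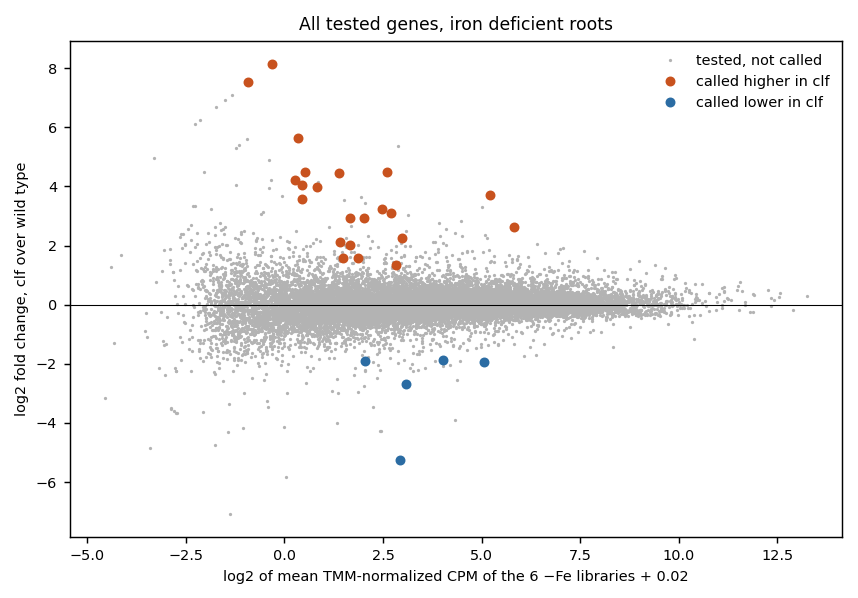
Log2 fold change between *clf* and wild type under -Fe (vertical axis) against the log2 of the mean CPM of the 6 libraries (horizontal axis) for the 20168 tested genes. The 22 genes called higher (orange) lie mainly at low mean levels and the 5 called lower (blue) include *CLF*, while the uncalled genes (grey) are centred on 0. Fitted values of genes with no read in one group depend on the prior count.

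The size of this set depended on the libraries in the fit. Without the 4 libraries least like their groups, 1 from each, edgeR called 980 genes higher and 622 lower, the 27 among them. The 4 groups were fitted together, and with only the 6 -Fe libraries edgeR called 2 genes higher and 2 lower. Same-numbered libraries deviated together under -Fe, while under +Fe those numbered 1 and 2 deviated in opposite directions. Under -Fe, wild type 3 followed *clf* 2 (correlation 0.306) more closely than *clf* 3 (0.165), so a pairing by number is uncertain. A fit that took the replicate number as a block called 24 and 4 with 12 libraries and 12 and 4 with 6. Of the 27 calls, the 12-library block kept 19. The 6-library block kept 8, with adjusted p between 0.0430 and 0.182 over the 27 genes. DESeq2 called 157 genes higher and 61 lower and kept all 27. Leaving out 1 library gave 6 and 2 calls without wild type -Fe 2, 6 and 3 without wild type -Fe 3, 10 and 3 without *clf* -Fe 2, and 8 and 2 without *clf* -Fe 3. It gave 19 and 11 without wild type -Fe 1, 32 and 8 without *clf* -Fe 1, 44 and 17 without wild type +Fe 1, 15 and 3 without *clf* +Fe 1, and 30 and 8 without *clf* +Fe 2. In none of these settings did any of the 27 genes change direction. *CLF*, *AT5G05060*, *AT1G52100* and *AT5G41290* were called in each of the 23 other settings that tested them.

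**Figure D2:**
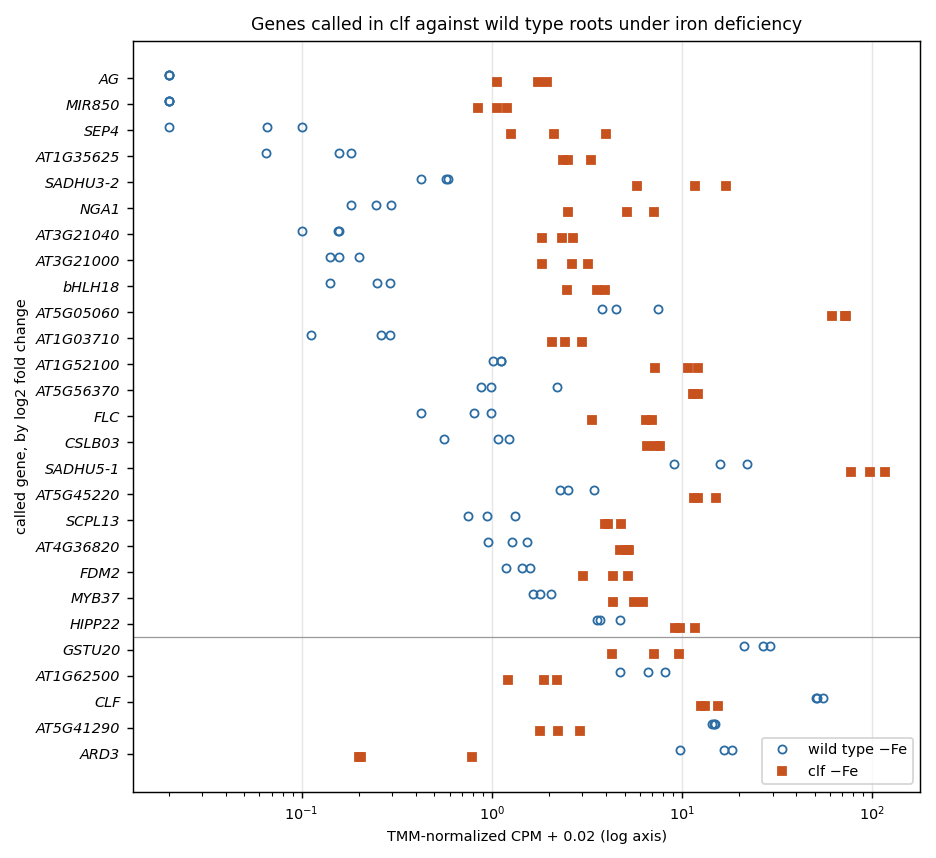
TMM-normalized CPM plus 0.02 (horizontal log axis) of each called gene (rows, ordered by log2 fold change) in the 3 wild type (open circles) and 3 *clf* (filled squares) -Fe libraries. In each row the 3 squares and the 3 circles do not overlap, and *AG* and *MIR850* have no read in any wild type library.

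Of the 22 genes called higher, 2 encode MADS domain factors of flowers. *AGAMOUS* (*AG*, AT4G18960, chromosome 4, 10382856 to 10388539), the organ identity gene of stamens and carpels, had no read in any of the 3 wild type libraries and 26, 42 and 38 reads in the *clf* libraries, or 1.05, 1.93 and 1.72 CPM. Against a floor of 3 reads over the wild type group, *AG* was at least 35.9-fold higher (edgeR adjusted p = 0.0245, and 0.114 with the replicate block). *SEPALLATA4* (*SEP4*, AT2G03710, chromosome 2, 1129229 to 1131838), which acts with the other SEPALLATA factors in every floral whorl, had 2, 0 and 1 reads in wild type and 31, 46 and 88 in *clf*. Over the groups that was 3 reads against 165, a ratio of 55.0 with an exact 95% interval from 18.5 to 269 that covers counting error only. The fitted log2 fold change of *SEP4* was 5.65 (SE 0.88, edgeR adjusted p = 0.0367, and 0.0789 with the replicate block). Both genes were silent or nearly so in the wild type and present in each *clf* library, at a level below 5 CPM.

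Of the 15 floral MADS genes listed, 5 had enough reads to be tested. Genes nearly silent in wild type could pass the filter mainly through the group in which they are high, so the direction and median of those tested say little about the list. edgeR called 2 of them, and none with the replicate block. With no filter, 14 were tested, 2 were called and the median log2 fold change was 1.97. *PISTILLATA* (*PI*), a petal and stamen identity gene, was measured at 1.13, 1.31 and 1.84 CPM in wild type and at 3.42, 5.07 and 6.39 CPM in *clf*. Its groups did not overlap, and its log2 fold change of 1.79 (SE 0.31) narrowly missed the threshold (edgeR adjusted p = 0.0669). *SEP3* had levels of 0, 0.135 and 0 CPM in wild type and 0.0403, 0.461 and 0.907 CPM in *clf*, and *APETALA3* (*AP3*) overlapped as well. Among the 10 members not tested, *AP1* had 0 reads in wild type and 20 in *clf*, *SEP2* had 0 and 7, *STK* had 2 and 10, and *AGL6* and *SHP2* had none in either. The 7 flower markers, *AG*, *PI* and *SEP3* among them, summed to 1.42 to 2.21 CPM in wild type, where 2 or 3 of them were detected, and to 5.52 to 9.98 CPM in *clf*, where all 7 were. The part of floral tissue in these levels was not tested.

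*FLOWERING LOCUS C* (*FLC*, AT5G10140, chromosome 5, 3173382 to 3179448), the repressor of flowering that vernalization silences, was also higher in *clf*. It was measured at 0.971, 0.406 and 0.783 CPM in wild type and at 6.49, 3.36 and 6.98 CPM in *clf*. The lowest *clf* library was above the highest wild type library, and the log2 fold change was 2.95 (SE 0.48, edgeR adjusted p = 0.0443, and 0.0547 with the replicate block). *FLC* was the 1 called member of its 6-gene clade, and none of *MAF1* to *MAF5* had an unadjusted p under 0.05. The annotation places a noncoding gene on the other strand along the whole of *FLC*. The library kit keeps strand, but the sources do not state the strand setting of the counting, so reads from either strand cannot be told apart.

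Other MADS genes are usually expressed in roots. Of 13 genes in a list made mainly of the *AGL17* and *SOC1* clades, edgeR called none and DESeq2 called 2 higher. An unadjusted p under 0.05 was reached by 3 higher and 1 lower, against 4.58% and 3.14% of all genes. *SOC1*, a promoter of flowering, was measured at 6.88, 13.0 and 10.9 CPM in wild type and at 25.7, 36.0 and 43.0 CPM in *clf*. Its groups did not overlap (log2 fold change 1.77, SE 0.30, edgeR adjusted p = 0.0587), and with the replicate block it passed the threshold (adjusted p = 0.0403). *AGL15*, a listed gene that belongs to neither clade, stood on the other side. It was at 1.46, 0.180 and 0.368 CPM in wild type and 0.0403, 0 and 0.0453 CPM in *clf* (log2 fold change -4.30, SE 1.11, edgeR adjusted p = 0.257). The median log2 fold change of the 13 was 0.263, and 0.0460 without wild type -Fe 1.

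Developmental regulators outside the MADS family were examined next. *NGATHA1* (*NGA1*, AT2G46870), a B3 domain factor of leaf and carpel growth, was measured at 0.162, 0.226 and 0.276 CPM in wild type and at 2.498, 7.14 and 5.12 CPM in *clf* (log2 fold change 4.45, SE 0.69, edgeR adjusted p = 0.0367). *YABBY2* (*YAB2*), a factor of the abaxial side of lateral organs, had no read in wild type and 55, 28 and 27 reads in *clf*, which is at least 36.0-fold higher, but its adjusted p of 0.0566 (edgeR) was above the threshold. Of 7 tested KNOX homeobox genes, which keep shoot meristems undifferentiated, edgeR called none and DESeq2 called 1. At an unadjusted p under 0.05, 3 were higher, against 4.58% of all genes. *KNAT1*, the first of these, was at 3.89, 3.92 and 5.75 CPM in wild type and 10.03, 8.57 and 12.2 CPM in *clf* (log2 fold change 1.18, SE 0.25, edgeR adjusted p = 0.150). The R2R3 factor *MYB37*, also named *RAX1*, which promotes axillary meristems, was called. It was at 1.78, 1.62 and 2.03 CPM in wild type and 4.35, 5.57 and 6.26 CPM in *clf* (log2 fold change 1.57, SE 0.24, edgeR adjusted p = 0.0366, and 0.0543 with the replicate block).

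Among regulators of iron deficiency, 1 of 23 tested genes was called, *bHLH18* (AT2G22750, chromosome 2, 9671673 to 9673928). It encodes a bHLH factor of subgroup IVa, whose members are known in Arabidopsis to promote turnover of the FIT protein in jasmonate-treated plants. *bHLH18* was measured at 0.121, 0.271 and 0.230 CPM in wild type and at 2.46, 3.55 and 3.95 CPM in *clf*. The groups were far apart at a low level, with a log2 fold change of 3.97 (SE 0.54, edgeR adjusted p = 0.0160). The other subgroup IVa genes were not called. *bHLH25* did not overlap between the groups (log2 fold change 1.57, SE 0.45, edgeR adjusted p = 0.341), while *bHLH20* and *bHLH19*, which neighbours *bHLH18*, did. The targets and partners of FIT were not called either. None of the 90 FIT-dependent genes was called by edgeR and 2 were called higher by DESeq2. The unadjusted p was under 0.05 for 7 higher and 1 lower, against 4.58% and 3.14% of all genes. Of the 90, 77 had a positive log2 fold change and the median was 0.385, but it was 0.0170 without wild type -Fe 1. *FIT*, *FRO2* and *IRT1* overlapped between genotypes, with log2 fold changes of 0.76 (SE 0.60), 0.62 (SE 0.90) and 0.46 (SE 0.93). Without the 4 libraries least like their groups, wild type -Fe 1 among them, *FIT* was called higher (log2 fold change 0.55, edgeR adjusted p = 0.0230), *FRO2* and *IRT1* were not, and 3 iron regulators were called higher and 1 lower. The FIT-dependent genes then had 15 called higher and 6 lower. In that setting edgeR called 980 higher and 622 lower of the 20072 genes tested. With all 12 libraries, edgeR called 1 lower and 0 higher of the 85 PYE-dependent genes, the study's other iron-responsive set. Their unadjusted p was under 0.05 for 4 higher and 10 lower, against 4.58% and 3.14% of all genes. Of the 85, 49 had a positive log2 fold change, and the median was 0.0738.

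A further set of genes called higher consisted of retroelements and noncoding transcripts, of which the 3 pseudogenes and 1 miRNA gene made 4 of the 22 by biotype. Of the 20090 tested genes with an annotated biotype, 1.64% were not protein coding. *SADHU5-1* and *SADHU3-2* belong to Sadhu, a family of short retroposons that varies in silencing between Arabidopsis strains. *SADHU3-2* (AT3G42658, chromosome 3, 14749400 to 14750294) was at 0.567, 0.406 and 0.552 CPM in wild type and 5.80, 17.0 and 11.7 CPM in *clf* (log2 fold change 4.48, SE 0.54, edgeR adjusted p = 0.00816). *SADHU5-1* (AT4G01525, chromosome 4, 660810 to 661698) was among the most abundant called transcripts. It was at 9.11, 22.0 and 15.9 CPM in wild type and 77.8, 117 and 97.9 CPM in *clf* (log2 fold change 2.64, SE 0.30, edgeR adjusted p = 0.00540). Its sequence recurs with 99.1% identity over 745 bases in AT1G18193 and with 95.4% identity over 615 bases in AT4G00953, so its reads cannot be placed with certainty. The 7 other tested Sadhu elements had log2 fold changes from -0.28 to 0.54 and none was called.

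*AT3G21000*, annotated as related to Gag-Pol of retrotransposons, and the pseudogene *AT3G21040* were both called, and lie within 10485 bases of each other on chromosome 3 (7363880 to 7365391 and 7372760 to 7374364, plus strand). *AT3G21000* had 3, 4 and 3 reads in wild type and 45, 57 and 70 in *clf* (log2 fold change 4.07, SE 0.44, edgeR adjusted p = 0.00518). *AT3G21040* had 2, 3 and 3 reads in wild type and 45, 58 and 51 in *clf* (log2 fold change 4.21, SE 0.55, edgeR adjusted p = 0.0125). The pseudogene *AT3G21010* between them had no read in wild type and 5, 21 and 24 in *clf*, and was not called (edgeR adjusted p = 0.114). *AT3G21020* and *AT3G21030*, also between them, had 3 reads each in *clf* and none in wild type, and *AT3G21050* beyond had 3 reads in wild type and 6 in *clf*.

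**Figure D3:**
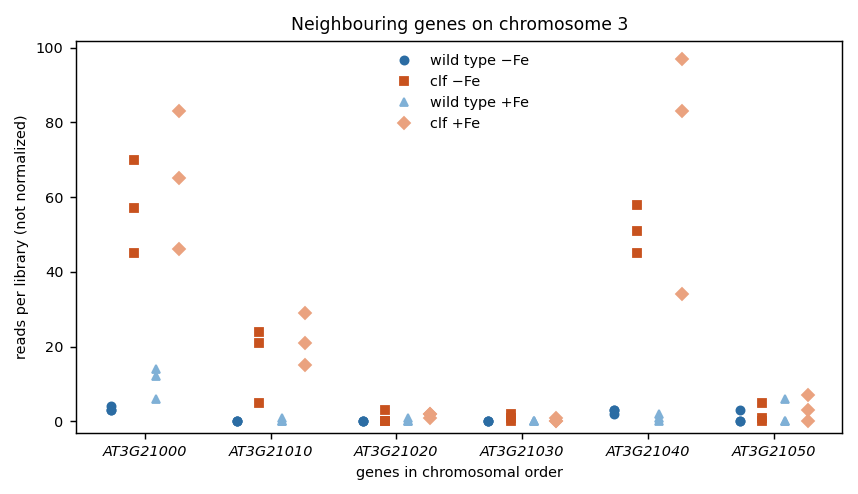
Reads per library, not normalized (vertical axis), of 6 adjacent genes of chromosome 3 in their order (horizontal axis) in the 4 groups, 1 point per library. *AT3G21000*, *AT3G21010* and *AT3G21040* had 45 to 70, 5 to 24 and 45 to 58 reads in the *clf* -Fe libraries against at most 4 in the wild type -Fe libraries.

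The bases before the annotated starts of *AT3G21000* and *AT3G21040* are shown because both hold a telobox, a short motif named for its likeness to plant telomere repeats and known from PRC2 recruitment sites in Arabidopsis. The first stretch is chromosome 3, 7363780 to 7363879, and the second is 7372610 to 7372759, both plus strand, read 5′ to 3′ from RefSeq TAIR10.1. Capitals mark the telobox on the reverse strand (TAGGGTTT).
AT3G21000: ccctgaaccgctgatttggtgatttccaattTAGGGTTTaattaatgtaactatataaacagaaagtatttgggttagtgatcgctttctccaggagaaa
AT3G21040: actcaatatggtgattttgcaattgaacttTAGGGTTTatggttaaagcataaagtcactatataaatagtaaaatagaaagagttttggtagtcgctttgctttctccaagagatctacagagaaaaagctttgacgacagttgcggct
The motif begins 69 bases before *AT3G21000* and 120 bases before *AT3G21040*. Searched as AAACCCTA on both strands in the 300 bases before the annotated start, it occurred in these 2 of the 22 genes called higher (9.09%) and in 869 of 20090 tested genes with a position (4.33%). Both genes lie in the same stretch of chromosome 3, so they may not be independent occurrences. The longest run shared by their 300 upstream bases was 11 bases, and whether the genes are copies was not tested.

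The GA repeat is another motif named for PRC2 recruitment in Arabidopsis, and was present before *AG* and *SEP4*. It was searched as GAGAGA on both strands, overlapping matches counted, and matches are in capitals. The stretch of *AG* is chromosome 4, 10382576 to 10382675, and that of *SEP4* is chromosome 2, 1128979 to 1129078, both plus strand.
AG: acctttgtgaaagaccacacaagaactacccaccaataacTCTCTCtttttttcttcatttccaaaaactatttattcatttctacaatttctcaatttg
SEP4: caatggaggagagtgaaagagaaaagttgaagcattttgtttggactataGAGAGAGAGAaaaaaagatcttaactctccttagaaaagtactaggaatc
It was found before 4 of the 22 genes called higher and before 22.7% of the 20090 genes.

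*MIR850* (AT4G13493, chromosome 4, 7845707 to 7845927) was the 1 called gene of a microRNA. It had no read in wild type and 26, 18 and 26 reads in *clf*, which is at least 23.3-fold higher (edgeR adjusted p = 0.0125). These are reads of a poly(A)-selected library over the precursor, not of the mature miRNA, whose 22 bases at 7845756 to 7845777 are shown to identify it. Capitals mark the seed, bases 2 to 8.
miR850: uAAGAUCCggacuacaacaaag
All 221 bases of *MIR850* lie within *AT4G13495*, a long noncoding gene on the same strand, and *MIR863* is the next annotated gene. *AT4G13495* had 23, 3 and 5 reads in wild type and 176, 71 and 116 in *clf* (log2 fold change 3.55, edgeR adjusted p = 0.0821), and *MIR863* had 0 and 8 reads in all. How the counting assigned reads on the bases that *MIR850* and *AT4G13495* share was not tested.

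Protein-coding genes outside development made up the remainder. The member with the smallest adjusted p was *AT5G05060*, of the cystatin superfamily of cysteine protease inhibitors (chromosome 5, 1493719 to 1495136). It was at 7.49, 4.51 and 3.77 CPM in wild type and at 61.8, 71.9 and 73.1 CPM in *clf*. The *clf* libraries were close to each other and far above the wild type (log2 fold change 3.71, SE 0.25, edgeR adjusted p = 0.000216). A stretch of 557 bases of it recurs with 98.9% identity in *AT5G05040*, which had 0 reads in wild type and 9 in *clf*. *AT1G03710*, another cystatin-like gene, was at 0.243, 0.271 and 0.0921 CPM in wild type and 2.05, 2.395 and 2.95 CPM in *clf* (log2 fold change 3.57, SE 0.44, edgeR adjusted p = 0.00983). These were 2 of 6 tested genes with that annotation, of 22 annotated, where 0.109% of all tested genes were called higher. The family was picked after the values were seen. *AT1G03710*, nearly silent in wild type, could pass the filter mainly through the *clf* libraries, so no conclusion is drawn from this count.

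*AT1G52100*, a mannose-binding lectin, was at 1.09, 0.992 and 1.105 CPM in wild type and 7.21, 10.7 and 12.2 CPM in *clf* (log2 fold change 3.23, SE 0.34, edgeR adjusted p = 0.00518). Its neighbour *AT1G52110*, of the same family, was at 0.121, 0.0451 and 0.230 CPM and at 1.17, 0.829 and 1.45 CPM in *clf*, with an adjusted p of 0.0993 (edgeR). The family as a whole did not move one way, with 12 of 26 tested members positive. *AT5G45220*, a TIR-NBS-LRR immune receptor gene, was at 2.51, 3.43 and 2.26 CPM in wild type and 11.6, 15.1 and 12.2 CPM in *clf* (log2 fold change 2.24, SE 0.33, edgeR adjusted p = 0.0245). It was the 1 called gene of 77 tested with that annotation, against 0.109% of all genes called higher. The F-box gene *AT5G56370* and the RING/U-box gene *AT1G35625*, both of families that serve in ubiquitin ligases, rose with log2 fold changes of 3.12 (SE 0.34) and 4.49 (SE 0.61).

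Genes of metabolism and cell walls were called as well. *SCPL13*, a serine carboxypeptidase-like gene, was at 0.729, 1.31 and 0.921 CPM in wild type and 3.91, 4.79 and 4.08 CPM in *clf* (log2 fold change 2.11, SE 0.31, edgeR adjusted p = 0.0245). The adjacent *SNG1*, which encodes the enzyme that makes sinapoylmalate, was at 3.32, 6.50 and 8.75 CPM and at 18.5, 28.4 and 31.2 CPM in *clf*, with an adjusted p of 0.0689 (edgeR). *CSLB03*, a cellulose synthase-like gene, was at 1.21, 0.541 and 1.06 CPM in wild type and 7.33, 7.65 and 6.58 CPM in *clf* (log2 fold change 2.93, SE 0.33, edgeR adjusted p = 0.00540). *AT4G36820*, of the mitochondrial calcium uniporter family, had a log2 fold change of 2.02 (SE 0.24), and *HIPP22*, a heavy metal-associated isoprenylated protein, had 1.35 (SE 0.20), the smallest of the set. *FDM2*, of the family of IDN2 factors in RNA-directed DNA methylation, had 1.59 (SE 0.25). With the replicate block, *HIPP22* and *FDM2* lost the call (adjusted p = 0.0585 and 0.0588). *FDM2* shares 95.2% identity over 1449 bases with *AT1G15910*, which had 3261 reads in wild type and 2786 in *clf*, so reads of their common stretch cannot be placed with certainty.

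The called genes lay on all 5 chromosomes, with 6, 7, 3, 5 and 6 on chromosomes 1 to 5. Of those chromosomes 5297, 3061, 3977, 3064 and 4691 genes were tested. Chromosome 2, which carries *CLF*, thus had the most called genes, *CLF* included, and the fewest tested. Apart from *CLF* itself, *SCPL13* and *bHLH18* were the nearest to the insertion, 171782 and 281164 bases from *CLF*. In a window of 400000 bases on each side of *CLF*, set after these values were seen, 2 of 136 tested genes were called (1.47%, against 0.134% of all genes), and the window was wide enough to hold both. Linked sequence carried with the insertion and loss of CLF cannot be told apart there. Among the 3 annotated genes on each side of every called gene, 85 other genes were tested and edgeR called none, while 15 of them had an unadjusted p under 0.05, against 7.72% of all genes. Their median log2 fold change was -0.01.

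Besides *CLF*, 4 genes were lower in *clf*. *ARD3* (AT2G26400, chromosome 2, 11231770 to 11233388), an acireductone dioxygenase of the methionine salvage cycle, had the steepest fall. It was at 18.3, 16.7 and 9.71 CPM in wild type and at 0.765, 0.184 and 0.181 CPM in *clf* (log2 fold change -5.26, SE 0.59, edgeR adjusted p = 0.0123). In the +Fe libraries *ARD3* was off in both genotypes, with no read in wild type and 1 read in *clf*, so that the level of wild type roots was found under -Fe only. *AT5G41290*, a secreted relative of receptor-like kinases, was at 14.9, 14.7 and 14.3 CPM in wild type and 2.90, 2.21 and 1.77 CPM in *clf* (log2 fold change -2.67, SE 0.22, edgeR adjusted p = 0.000684). Its tandem neighbours *AT5G41280* and *AT5G41300* lay below wild type in every *clf* library as well, but were not called (log2 fold change -2.23, SE 0.48, and -1.28, SE 0.35, edgeR adjusted p = 0.153 and 0.303). *AT1G62500*, of the lipid-transfer protein superfamily, was at 8.14, 6.59 and 4.70 CPM in wild type and 1.85, 1.198 and 2.18 CPM in *clf* (log2 fold change -1.89, SE 0.30, edgeR adjusted p = 0.0443, and 0.0800 with the replicate block).

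The fourth, *GSTU20* (AT1G78370, chromosome 1, 29484120 to 29485389), encodes a tau class glutathione transferase that is coexpressed with the genes of aliphatic glucosinolates, the methionine-derived defence compounds of Brassicaceae. *GSTU20* was at 21.2, 29.1 and 26.7 CPM in wild type and 9.63, 4.28 and 7.12 CPM in *clf* (log2 fold change -1.87, SE 0.26, edgeR adjusted p = 0.0199, and 0.0543 with the replicate block). It was the 1 called gene of 37 tested glutathione transferases and the 1 called gene of 25 tested genes of aliphatic glucosinolate synthesis. In the second list, 13 genes were lower and none higher at an unadjusted p under 0.05, 16 lay below wild type in every *clf* library (against 3.14% and 6.28% of all genes) and the median log2 fold change was -0.963. *BCAT4*, which starts the chain elongation of methionine, was at 47.8, 63.6 and 52.4 CPM in wild type and 15.0, 11.7 and 17.2 CPM in *clf* (log2 fold change -1.90, SE 0.62, edgeR adjusted p = 0.458). *MYB28*, the main activator of the pathway, was at 13.0, 15.4 and 18.9 CPM in wild type and 6.57, 8.84 and 9.02 CPM in *clf* (log2 fold change -0.95, SE 0.32, edgeR adjusted p = 0.464). *CYP83A1* and *MAM1* had log2 fold changes of -1.72 (SE 0.65) and -0.96 (SE 0.28). Leaving out 1 library at a time, or any other setting tried, kept the median of the list negative. These 25 genes share regulators and are not independent of each other.

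Root tissue lists held no called gene. Positive medians were found for 25 root hair and epidermis genes (0.432, and -0.0276 without wild type -Fe 1), 11 xylem and phloem genes (0.522) and 11 endodermis genes (0.201, and -0.0310 without wild type -Fe 1). Of 18 genes of the root meristem and root cap, edgeR called none and 2 had a positive log2 fold change, with a median of -0.392 (-0.187 without wild type -Fe 1). DESeq2 called 1 lower and 3 were lower with an unadjusted p under 0.05, against 3.14% of all genes. The first of them, *MGP*, a zinc finger partner of SHORT-ROOT, was at 29.5, 25.7 and 25.9 CPM in wild type and 14.7, 16.6 and 17.3 CPM in *clf* (log2 fold change -0.74, SE 0.15, edgeR adjusted p = 0.142). The 17 genes of suberin synthesis had a median of -0.365 (-0.0543 without wild type -Fe 2 and -0.554 without wild type -Fe 1), with no member past an unadjusted p of 0.05 and none called by DESeq2. Of 23 tested genes of PRC2 and of H3K27 demethylases, *CLF* was the 1 called, and the median was -0.0437. With *CLF* included, 2 were above wild type in every *clf* library and 5 below, against 7.65% and 6.28% of all genes. The unadjusted p was under 0.05 for 2 higher and 3 lower, against 4.58% and 3.14%. Among those above was *EMF1*, a plant Polycomb factor (47.6, 44.2 and 49.2 CPM in wild type against 94.1, 57.7 and 61.1 CPM in *clf*, log2 fold change 0.60, SE 0.18, edgeR adjusted p = 0.385).

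**Figure D4:**
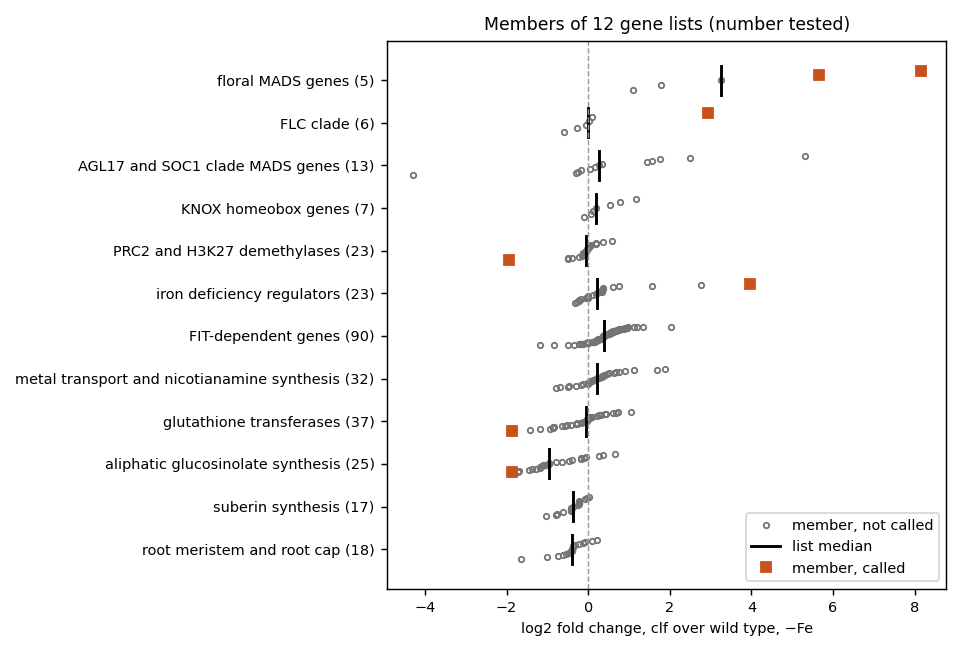
Log2 fold change between *clf* and wild type under -Fe (horizontal axis) for the tested members of 12 gene lists (rows, with the number tested). Circles are members not called, squares are called members and black bars are list medians, which run from -0.963 for aliphatic glucosinolate synthesis to 3.25 for the 5 floral MADS genes that passed the filter.

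The 27 genes were then tested in the 6 +Fe libraries, which had no part in choosing them by their values, although all 12 libraries shared the estimate of the spread. All 22 genes called higher under -Fe were positive there and had groups that did not overlap, and 21 had an unadjusted p under 0.05. Of all genes tested, 4.48% did not overlap in that direction and 1.94% were higher at that p. edgeR called 10 of the 22 in the +Fe libraries, where it called 13 genes higher in all (0.0645% of those tested, and 0.0694% in either direction). These 10 were 45.5% of the genes called higher under -Fe and 76.9% of those called under +Fe. The count was 1 without wild type +Fe 3, 5 without wild type +Fe 2 and 6 without any one of *clf* +Fe 1 to 3, *clf* -Fe 2 or *clf* -Fe 3, and 6 with the replicate block. The 3 called under +Fe alone were *PI*, the F-box gene *AT1G66320* and *IMA2*, which encodes a small peptide that promotes iron uptake. *IMA2* was at 0.127, 0.209 and 0.144 CPM in wild type and at 1.13, 0.821 and 1.68 CPM in *clf* with iron, while under -Fe the genotypes overlapped at 81.4 to 145 CPM. *AT1G66320* had 10, 0 and 3 reads in wild type and 117, 52 and 66 in *clf* under -Fe (edgeR adjusted p = 0.0776).

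Of the 5 tested floral MADS genes, *AG* and *PI* were called higher with iron. *AG* had no read in wild type +Fe roots and 58, 27 and 29 in *clf*, and it was called there too (edgeR adjusted p = 0.0447). *SEP4* was not called with iron (log2 fold change 2.49, SE 0.67, edgeR adjusted p = 0.671). *FLC*, the flowering repressor, had a log2 fold change of 3.00 (SE 0.47, edgeR adjusted p = 0.0520) and *NGA1* of 4.29 (SE 0.69, edgeR adjusted p = 0.0520). *AT5G05060* gave nearly the same fold in both conditions, 3.66 (SE 0.25) on the log2 scale with iron and 3.71 (SE 0.25) without it.

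Of the 5 genes called lower, 4 were negative under +Fe and only *CLF* was called, where 0.00496% of all genes were called lower. For *CLF*, *AT1G62500* and *GSTU20*, 3 of the 5, every *clf* library was below every wild type library and the unadjusted p was under 0.05, against 4.34% and 1.43% of all genes. *CLF* was again lower (log2 fold change -1.75, SE 0.17, edgeR adjusted p = 0.00341). *AT5G41290* was at 0.717, 0.835 and 0.863 CPM in wild type and 0.744, 0.821 and 0.654 CPM in *clf* with iron, and the genotypes overlapped there. The change in its genotype difference between iron conditions was -2.55 (SE 0.32), the smallest p of all genes for that test (edgeR adjusted p = 0.0928). No gene was called for a difference between iron conditions by edgeR. DESeq2 called 3, all more negative under -Fe, and 160 genes in each direction (0.793% each) had an unadjusted p under 0.05 in edgeR. Since the 27 genes were chosen on their -Fe values, no count of them is given for that difference.

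**Figure D5:**
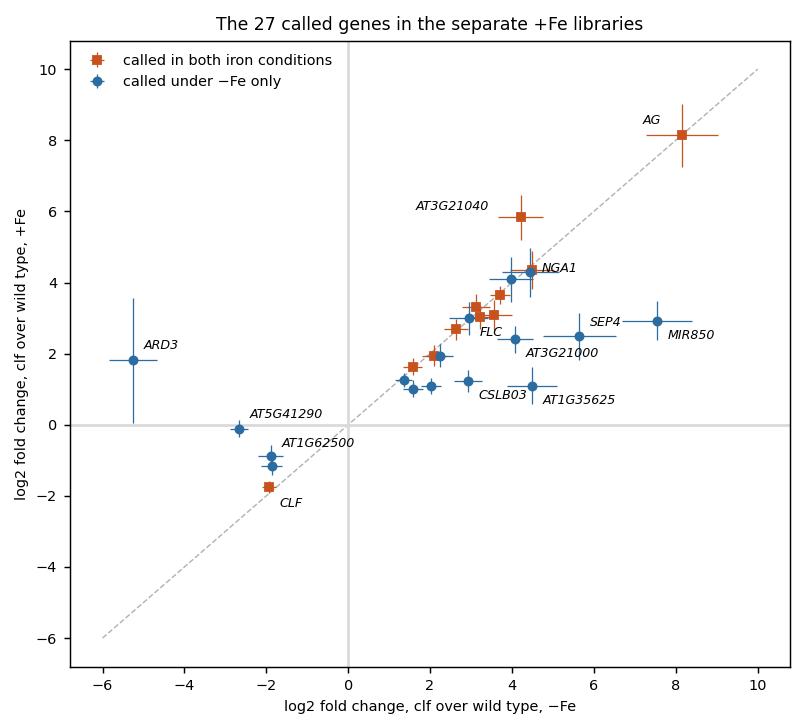
Log2 fold change between *clf* and wild type in the -Fe libraries (horizontal axis) against that in the +Fe libraries (vertical axis) for the 27 genes called under -Fe, with standard errors as bars and equality as a dashed line. All 22 genes to the right of 0 are above 0 on the vertical axis, *AT5G41290* is near 0 there, and the value of *ARD3* under +Fe rests on 1 read. Fitted values of *AG* and *MIR850*, which have no wild type read under -Fe, depend on the prior count and are no bound.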

How the data were processed

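Per the labels and the study's methods, 150 bp read pairs were mapped to TAIR10 with TopHat2 by the authors, who then counted reads per gene with HTSeq in union mode. The raw count table they deposited was the input here. The FPKM values deposited by the authors were computed by them from gene length and library size, and were used in alternatives only. No source used here gives the aligner's version.

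Counts of all 12 libraries (4 groups) were fitted by robust quasi-likelihood in edgeR 4.0.16 under R 4.3.3, after the tool's default filter on low counts and TMM normalization, which left 8 residual degrees of freedom. Adjusted p-values are Benjamini-Hochberg over 20168 genes, with a threshold of 0.05. Floors for genes without reads were 3 reads over the group and cover counting error only. Positions and sequences are RefSeq TAIR10.1, and repeated stretches were found with blastn at 90% identity over 150 bases.

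Correlations of same-numbered libraries' deviations from their group means were 0.448, 0.541 and 0.165 under -Fe. All were over 0.1, so the numbers were taken to pair these libraries in an alternative fit. Wild type 3 with *clf* 2 had 0.306, so number 3 was not singled out, and the labels do not say what the numbers mark. Under +Fe the same-numbered correlations were -0.386, -0.398 and 0.344, and wild type 1 with *clf* 2 had 0.492. The replicate block over 12 libraries thus rests on numbers that did not pair the +Fe libraries. The alternatives were DESeq2 1.42.0, RLE factors, other filters, a replicate block, fewer libraries and limma 3.58.1 on log2(FPKM + 1) or log2(FPKM + 0.1).

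The genes named are *CLF*, called genes ranked by fold change (up to 14 in each direction), genes with at most 3 reads in one -Fe group and at least 1 CPM in the other, *FIT*, *FRO2* and *IRT1*, and in each of 34 lists up to 4 called members, or 2 by smallest p. The remaining called genes, neighbours, copies and other list members were named after their values were seen. Members and lists were chosen with earlier results of these data known.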

Additional observations from a re-analysis of the deposited data

How the results depend on the processing

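Against 22 higher and 5 lower, the counts were 9 and 3 with at least 10 reads in every library, 2 and 2 with only the 6 -Fe libraries, 12 higher with those and a replicate block, 157 and 61 with DESeq2, and 980 and 622 without the 4 libraries that stand apart. That last setting drops the least correlated library of each group, which narrows the spread. limma on log2(FPKM + 1) called 16 lower, with or without a filter, and 10 on log2(FPKM + 0.1). Leaving out 1 library gave 6 to 44 higher and 2 to 17 lower. Of the 22, the number called under +Fe was 10, and became 4 with at least 10 reads, 6 with the replicate block, 20 without the 4 libraries, 19 with DESeq2 and 1 to 13 leaving out 1 library, while of the 5 lower it was 1 and became 2 without the 4 libraries and with DESeq2. For the difference between iron conditions, 348 and 103 genes were called without the 4 libraries and 0 and 3 with DESeq2. None of the 27 called genes reversed. Among the other named genes, those that did were *SESA2* (0.29, but -1.43 and -1.13 with the replicate block in 12 and in 6 libraries, -3.44 without the 4 libraries, -0.557, -1.62 and -0.557 with limma, -4.06 to 0.908 leaving out 1 library, lowest without *clf* -Fe 1), *LHB1B1* (-6.42 to 0.292, highest without wild type -Fe 1), *SUS1* (-0.265 to 1.69, lowest without *clf* -Fe 1), *ELF3* (-0.00641 to 0.452, likewise) and *ABI5* (-1.44 to 0.0144, highest without wild type -Fe 1). The causes were not tested. Except for the genes whose blocked value is given, the 12-library replicate block changed no call among the called genes and the tested genes named by the rule above. For the neighbours, copies and other list members named after their values were seen, the blocked values are not given. Of the 22 genes called higher, 13 had a wild type mean under 1 CPM, where the depth of the libraries limits the precision of a fold.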

Other observations

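Most of the other gene groups held no called gene. Of the 34 lists, 27 had no member called by edgeR, with medians between -0.699 and 0.522. DESeq2 called 12 of their members higher and 3 lower, where it called 157 and 61 over all genes. An unadjusted p under 0.05 was reached by 25 higher and 20 lower, against 4.58% and 3.14% of all genes. The number tested over these lists together is not given, so no conclusion is drawn from these counts. In nitrogen nutrition, *NIA1*, a nitrate reductase, was at 17.2, 54.4 and 30.8 CPM in wild type and 6.33, 10.04 and 11.3 CPM in *clf*, and *NRT1.8*, which takes nitrate out of the xylem, was at 39.6, 25.0 and 35.2 CPM in wild type and 269, 83.0 and 58.5 CPM in *clf*. Neither pair of groups overlapped, with log2 fold changes of -1.89 (SE 0.44, edgeR adjusted p = 0.191) and 2.04 (SE 0.53, edgeR adjusted p = 0.280). *IGMT1*, a methyltransferase of indole glucosinolates, was at 50.5, 109 and 94.9 CPM in wild type and 312, 254 and 341 CPM in *clf* (log2 fold change 1.83, SE 0.46, edgeR adjusted p = 0.243).

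Some genes nearly absent from one -Fe group had most of their reads in the other group in a single library. *CHX7*, a cation exchanger gene next to *FIT*, had 1, 1 and 0 reads in wild type and 95, 5 and 5 in *clf*, and *AT3G01345* had 205 reads in *clf* -Fe 2 and none in the other *clf* -Fe libraries. Neither passed the filter. *SWEET1*, a sugar exporter, had 90 of its 106 *clf* reads in *clf* -Fe 1 (edgeR adjusted p = 0.391). *CYP79F1*, of aliphatic glucosinolate synthesis, had 86 of its 89 wild type reads in wild type -Fe 1 and did not pass the filter, and *LHB1B1*, a light-harvesting gene, had 146 reads in wild type and 2 in *clf*, and was at 5.87 CPM in wild type -Fe 1 and at most 0.0461 CPM in the other -Fe libraries (edgeR adjusted p = 0.592).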
